A study of Mus musculus with 4 samples.

Results

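The GC_B Border spots are the ring of array positions where a germinal centre meets the B cell follicle of a mouse lymph node. They were taken by the region name in the deposited spot table, which gave 667 spots of 7271 over 4 sections, namely 152, 182, 176 and 157 in sections A to D. Each spot is a small round patch of tissue whose RNA is read under a single barcode, so the RNA of several cells is pooled, and a border spot can cover cells of both sides.

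A follicle is the B cell compartment of a lymph node, built mostly of resting B cells. After immunization, germinal centres form inside follicles, with a dark zone (DZ), where B cells divide and mutate their antibody genes, and a light zone (LZ), where they compete for antigen and for help from T cells. Resting follicular B cells are pushed outward and form a mantle around the germinal centre, and plasma cells, the antibody-secreting descendants of B cells, leave it.

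The sections came from draining lymph node of mice, with 14 days since immunization and 3 days since gavage per the labels. All 4 section names in the spot table carry the tag eYFP, a yellow fluorescent protein, and the sources used here do not say what expressed it. The genotype, strain, antigen, gavaged agent and number of animals are likewise unstated there. They are 10 µm thick, were cut 50 µm apart, share a sample ID stem and form 1 group, so they are serial sections rather than known separate animals. Every SD and p-value here therefore measures the spread between sections, which may be technical.

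The label and the position of the spots went together. Every GC_B Border spot lay next to at least 1 DZ or LZ spot, and all 1294 B zone spots lay 2 or more steps away. How regions were assigned is not stated in the sources used here. A name drawn from array position or from clusters could give such counts by itself. These counts and those of the clusters therefore describe the label and do not test it. The deposited expression clusters did not set the ring apart from the follicle. At the finer resolution 655 of the 667 border spots shared a cluster with 1291 of the 1294 B zone spots, and at the coarser resolution all 667 did so. The other 12 border spots fell in the clusters that hold the medulla (8 spots) and the T zone (4 spots). All 12 also touched a T zone or medulla region, 11 of them touched DZ only, and their pc_markers score ran from 0.132 to 0.417 with a mean of 0.259. Single genes were not analysed here, so the follicular B cell markers Ighd, Ms4a1 and Fcer2a were not checked.

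The table gives 6 gene set scores per spot. The names of Mo_GC_vs_Mem and pc_markers point to germinal centre against memory B cells and to plasma cell markers. Mo_CD34_SC, Mo_Inmt_SC, Mo_Nr4a1_SC and Mo_Nr4a1Inmt_SC carry an abbreviation that the sources used here do not expand. Which genes make up each score is not stated in the sources used here, and a score has no true zero, so no fold is given for it. Depth differed between sections, with 1696250, 2149501, 1059557 and 855177 UMIs (unique molecules counted) over the border spots of A to D. A single border spot held fewer than 1000 UMIs. Comparisons were made within each section and then summarised over the 4 sections as mean ± SD. The exact two-sided sign-flip permutation test used for them has 16 assignments and cannot give a p below 0.13 (rounded), so no comparison could pass 0.05.

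Most of the ring faced the light zone. In the sections A to D, 94, 118, 110 and 106 border spots touched LZ only, 428 in all and 64.2% ± 2.57 of the ring (SD, n = 4). Another 141 touched DZ only (32, 42, 44 and 23 spots), which is 20.9% ± 4.50. The remaining 98 touched both zones (26, 22, 22 and 28 spots), which is 14.9% ± 3.01. Section D had the smallest DZ-only share and the largest LZ-only share.

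The follicle took nearly the whole outer face of the light zone but only part of that of the dark zone. Of the 461 spots outside the germinal centres that touched LZ only, 428 were GC_B Border, a share per section of 92.8% ± 2.53. Of the 478 such spots that touched DZ only, 141 were GC_B Border, with shares of 37.2%, 28.2%, 32.6% and 21.3% in sections A to D. The lowest LZ-only share, 89.8% in section D, lay above the highest DZ-only share.

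The DZ-facing spots of the ring were also the ones nearest to other compartments. Of the 141 DZ-only spots, 109 had a T zone, medulla, GC_T Border or GC_Medulla Border spot among their neighbours, against 80 of the 428 LZ-only spots and 47 of the 98 that touched both. That left 32 DZ-only spots (6, 11, 13 and 2 in A to D) and 348 LZ-only spots with follicle and germinal centre neighbours alone. The LZ-only spots lay at an outer edge more often, with fewer than 6 spots around 114 of 428, against 3 of 141 for DZ only and 1 of 98 for both.

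**Figure D1:**
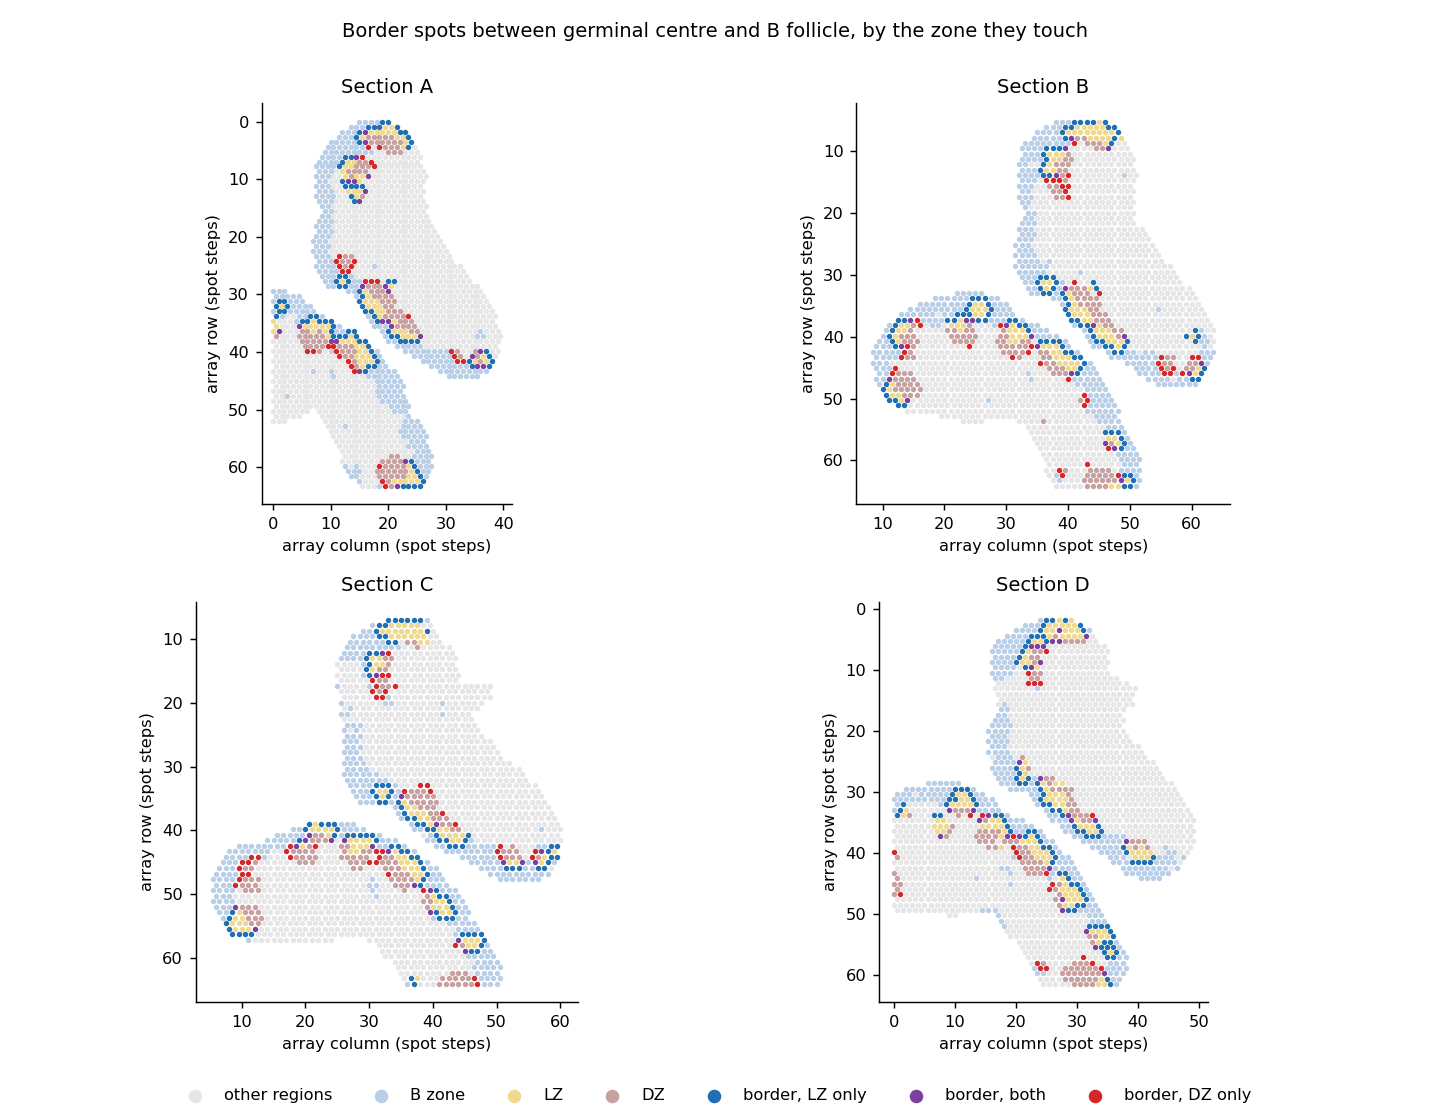
Map of the 4 sections, with array column and row in steps between spots; each point is a spot, in red where a border spot touches DZ only, dark blue where it touches LZ only, purple where it touches both, and pale where it is B zone, LZ, DZ or another region. Of the neighbours of dark blue spots, 428 of 667, 28.6% were B zone on average over sections, against 15.2% for red spots, 141 of 667.

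Against the rest of the follicle, the ring had a higher Mo_GC_vs_Mem score and a lower share of mitochondrial and ribosomal counts. Mo_GC_vs_Mem averaged 0.2002, 0.203, 0.195 and 0.191 in the border spots of sections A to D, against 0.185, 0.195, 0.177 and 0.175 in B zone. The ring was higher in every section, by 0.0142 ± 0.00385 (SD, n = 4; exact sign-flip p = 0.13, 0.208 after Benjamini-Hochberg adjustment over the 10 measures). Across sections the levels overlapped, since B zone of section B lay above the border spots of section D.

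The distributions of single spots overlapped widely as well. Of the border spots, 79.6%, 70.9%, 73.3% and 70.1% in A to D lay above their section's B zone median for Mo_GC_vs_Mem. Within section A the border spots ran from 0.118 to 0.250 with a median of 0.201. The share of border spots that exceeded the 10th percentile of the DZ and LZ spots of their section was 12.5%, 19.8%, 40.9% and 46.5%. For B zone spots it was 1.57%, 5.98%, 16.6% and 18.6%. In LZ-only spots it was 16.0%, 26.3%, 55.5% and 54.7%, and in DZ-only spots 0%, 0%, 13.6% and 17.4%. The shares in the shallower sections C and D were the higher ones, so this share is not comparable between sections.

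Mitochondrial counts made up 5.15%, 4.72%, 3.69% and 4.19% of UMIs in the border spots of A to D, and 5.69%, 5.22%, 4.58% and 5.44% in B zone. The difference was -0.800 ± 0.352 percentage points, below 0 in 4 of 4 sections. Ribosomal counts made up 25.5%, 23.2%, 21.5% and 20.9%, against 26.4%, 24.1%, 22.4% and 22.0%, a difference of -0.980 ± 0.0947 points in 4 of 4. Both differences shrank where only spots with 6 neighbours were compared on either side, to -0.451 and -0.394 points, still below 0 in every section.

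Of the SC scores, 3 were also lower in the ring than in B zone in 4 of 4 sections. Mo_CD34_SC averaged -0.0338, -0.0327, -0.0361 and -0.0351 in the border spots and -0.0250, -0.0222, -0.0248 and -0.0249 in B zone, so the groups did not overlap and differed by -0.0102 ± 0.00105. Mo_Nr4a1Inmt_SC differed by -0.00790 ± 0.00229 and Mo_Inmt_SC by -0.00644 ± 0.00464, the latter with -0.000499 in section A. The exact sign-flip p was 0.13 and the adjusted p 0.208 for each of these 5 measures.

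The other 4 measures had no shared direction. The ring held 11159.5, 11810.4, 6020 and 5447 UMIs per spot against 11062, 12137, 5889 and 5596 in B zone, a mean difference of -61.7 ± 216. The score pc_markers differed by -0.00364 ± 0.00435 and lay below B zone in 3 of 4 sections. These averages join parts of the ring that differed from each other, as the split by contact shows.

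Light-zone-facing and dark-zone-facing border spots differed in 8 of the 10 measures with a shared direction in all 4 sections. The largest score difference was in pc_markers. It averaged 0.146, 0.167, 0.137 and 0.130 in the LZ-only spots of A to D and 0.219, 0.227, 0.181 and 0.190 in the DZ-only spots. The DZ-only value of every section lay above the LZ-only value of every section.

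The difference in pc_markers, LZ only minus DZ only, was -0.0593 ± 0.0117 (SD, n = 4; exact sign-flip p = 0.13, adjusted p = 0.156). In these sections 70.5% to 87.5% of DZ-only spots and 23.4% to 35.8% of LZ-only spots lay above their section's B zone median. Spots that touched both zones averaged 0.175, 0.178, 0.156 and 0.158, between the other classes in every section.

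The contact classes of the ring also differed in which other compartments they touched, so the comparison was repeated by outer side. Among spots with follicle and germinal centre neighbours alone, the pc_markers difference was -0.0491, -0.0754, -0.0305 and -0.0348 in A to D, with only 2 DZ-only spots in section D. Among spots that touched a T zone or medulla region it was -0.0533, -0.0139, -0.0243 and -0.0455. It was below 0 in every section on both sides, with means of -0.0474 ± 0.0202 and -0.0342 ± 0.0183.

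Contact with other compartments went with a higher pc_markers score in the LZ-only spots. Those that touched a T zone or medulla region exceeded those that did not by 0.0357 ± 0.0131 in 4 of 4 sections. In DZ-only spots the same difference was 0.0225 ± 0.0207, with section B at -0.00806 and the others above 0. The part of plasma cells from neighbouring compartments in the ring's score was not tested.

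The Mo_GC_vs_Mem score ran the other way along the ring, higher at the light zone. It averaged 0.206, 0.206, 0.203 and 0.195 in LZ-only spots and 0.184, 0.193, 0.178 and 0.181 in DZ-only spots, without overlap between the groups. The difference was 0.0185 ± 0.00535 (n = 4; exact sign-flip p = 0.13, adjusted p = 0.156). It moved with depth: LZ-only spots held 12124, 12116, 7111 and 5876 UMIs against 8670.3, 10579, 4162 and 4712 in DZ-only spots.

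A linear fit of the score on log10 UMIs was made per section over all spots of the 8 regions. Its slope therefore also carries differences between regions, and depth within the ring alone was not fitted. After this fit the Mo_GC_vs_Mem difference was 0.000799 ± 0.00762, above 0 in 3 of 4 sections. The pc_markers difference after the same fit was -0.0530 ± 0.00942, below 0 in 4 of 4. Among border spots that touched a T zone or medulla region the Mo_GC_vs_Mem difference was 0.00556 ± 0.00827, with section D below 0. Among follicle-side spots it was 0.0197 ± 0.00733 in 4 of 4.

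**Figure D2:**
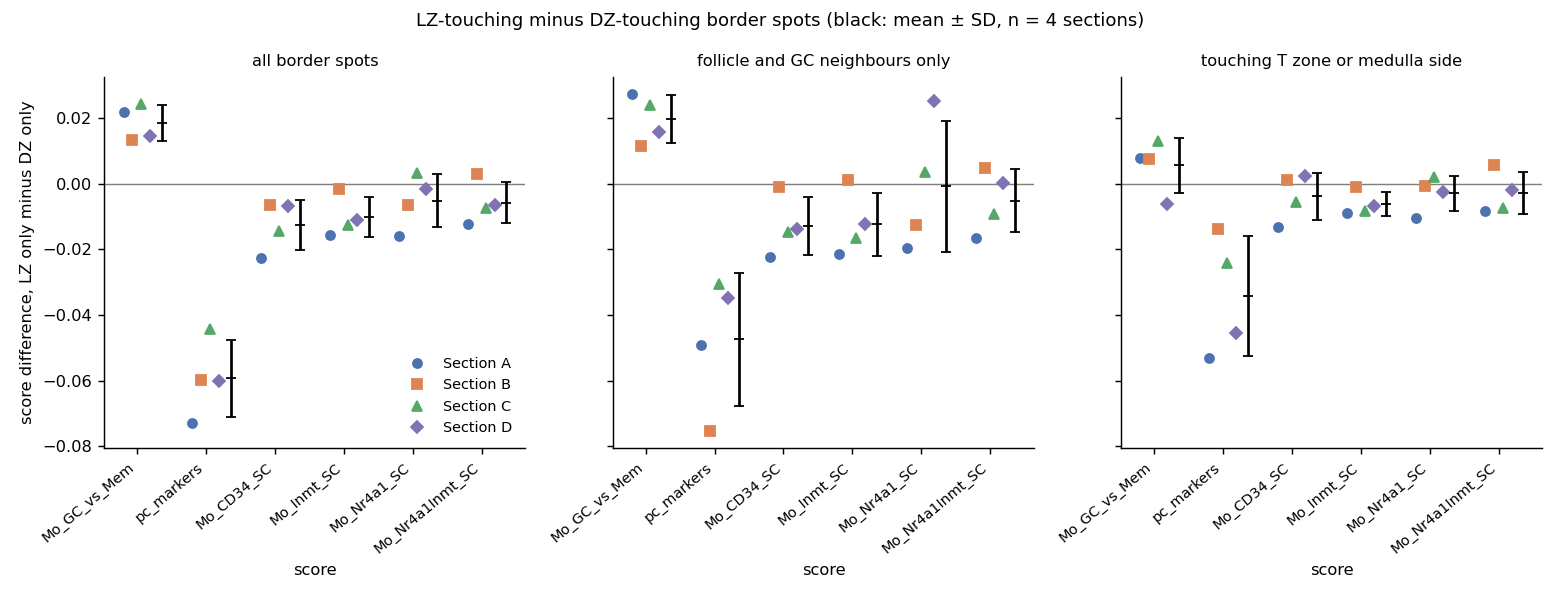
Differences in the 6 gene set scores between LZ-only and DZ-only border spots, per section (coloured symbols) and as mean ± SD over 4 sections (black), for all border spots, for those with follicle and germinal centre neighbours alone and for those that touch a T zone or medulla region. The pc_markers points lie below 0 in all 3 panels, and Mo_GC_vs_Mem lies above 0 in every section of the left and middle panels.

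Mitochondrial counts were lower at the dark zone. They made up 5.44%, 5.18%, 4.27% and 4.58% of UMIs in LZ-only spots of A to D and 4.59%, 3.54%, 2.89% and 3.50% in DZ-only spots. LZ-only spots were higher within each section, by 1.24 ± 0.350 percentage points, and the groups overlapped across sections only where section A's DZ-only value of 4.59% passed the LZ-only values of C and D. Only 6.09% ± 3.86 of DZ-only spots exceeded their section's B zone median, against 38.0% ± 10.7 of LZ-only spots.

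Part of the ring at the outer edge had high mitochondrial and ribosomal shares. Border spots with fewer than 6 neighbours exceeded those with 6 by 1.54 ± 0.733 points in mitochondrial and 2.45 ± 0.577 points in ribosomal share, in 4 of 4 sections, and by 2262 ± 1170 UMIs. When only border spots with 6 neighbours were kept, LZ-only spots still exceeded DZ-only spots by 0.925 ± 0.265 points in mitochondrial share and by 1558 ± 674 UMIs in 4 of 4. The ribosomal share differed by 1.72 ± 0.679 points over all border spots and by 1.09 ± 0.522 points among those with 6 neighbours.

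Mo_CD34_SC and Mo_Inmt_SC were higher at the dark zone in 4 of 4 sections. The differences, LZ only minus DZ only, were -0.0126 ± 0.00768 and -0.0102 ± 0.00602, with section A at -0.0227 and -0.0156 and section B at -0.00642 and -0.00165. Mo_CD34_SC kept no shared direction among spots touching a T zone or medulla region, with -0.00385 and 2 of 4 sections below 0. Mo_Inmt_SC became -0.00399 after the fit on log10 UMIs, below 0 in 3 of 4 sections. Among follicle-side spots it was -0.0123 ± 0.00964, with section B at 0.000983. Among spots touching a T zone or medulla region it was -0.00627 ± 0.00370, below 0 in 4 of 4. Mo_Nr4a1_SC and Mo_Nr4a1Inmt_SC differed by -0.00516 ± 0.00813 and -0.00582 ± 0.00631, with 1 section of 4 above 0 each.

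The contrast along the ring ran the same way as that of its germinal centre zones for some measures and not for others. The mitochondrial share was 1.21 ± 0.304 points higher in LZ than in DZ spots, close to the 1.24 points between LZ-only and DZ-only border spots, and the difference of these differences was 0.0315 ± 0.116 points with 2 sections on each side of 0. The pc_markers score was lower in LZ than in DZ, with a difference of -0.0378 ± 0.00636. The contrast between border classes went further below 0 in every section, by -0.0214 ± 0.0166. For Mo_GC_vs_Mem the directions were opposite: LZ spots lay below DZ spots by a difference of -0.00551 ± 0.00477 in 4 of 4 sections, while LZ-only border spots lay above DZ-only ones in 4 of 4. After the fit on log10 UMIs over all spots of a section, the border difference of 0.000799 ± 0.00762 had no shared direction. The difference between the zones was not fitted in this way.

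At the light zone the ring sat between the zone and the follicle. For 8 of the 10 measures the LZ-only level lay between the LZ and the B zone level of its section in all 4 sections. Its Mo_GC_vs_Mem was lower than in LZ by a difference of -0.0568 ± 0.00614 and higher than in B zone by 0.0193 ± 0.00572. Its pc_markers score was higher than in LZ by 0.0294 ± 0.00600 and lower than in B zone by a difference of -0.0194 ± 0.00652, both in 4 of 4. The exceptions were UMIs and genes per spot, which lay below both in section B. Against the nearest B zone spots alone, 2 steps away, the mitochondrial share of LZ-only spots was not intermediate in 3 of 4 sections, exceeding both sides there, nor was the ribosomal share in section C.

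At the dark zone the ring was intermediate in fewer measures. The DZ-only level lay between DZ and B zone in all 4 sections for 2 of 10 measures, the mitochondrial and ribosomal shares. For Mo_CD34_SC, Mo_Inmt_SC and Mo_Nr4a1Inmt_SC it did so in 3 of 4 sections each. Its pc_markers score exceeded DZ by 0.0509 ± 0.0140 and B zone by 0.0399 ± 0.00707 in 4 of 4 sections. DZ-only spots held fewer UMIs than both, with differences of -3415 ± 1440 from DZ and -1640 ± 619 from B zone. Their Mo_GC_vs_Mem score was level with the follicle, differing from B zone by 0.000809 ± 0.00321, and above it in 2 of 4 sections.

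The raised pc_markers score was also present in the 32 DZ-only spots without any T zone or medulla neighbour. These averaged 0.189, 0.232, 0.161 and 0.160 in A to D, above DZ by 0.0324 ± 0.0177 and above B zone by 0.0215 ± 0.0138 in 4 of 4 sections. DZ-only spots next to the medulla side averaged 0.208 ± 0.0313 and those next to the T zone side 0.204 ± 0.0207. For comparison, pc_markers averaged 0.228 ± 0.0187 in GC_T Border and 0.308 ± 0.0608 in GC_Medulla Border, from which all border spots together differed by -0.0671 ± 0.00742 and -0.147 ± 0.0443. The comparisons with zones and other borders are given as descriptions without a test.

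**Figure D3:**
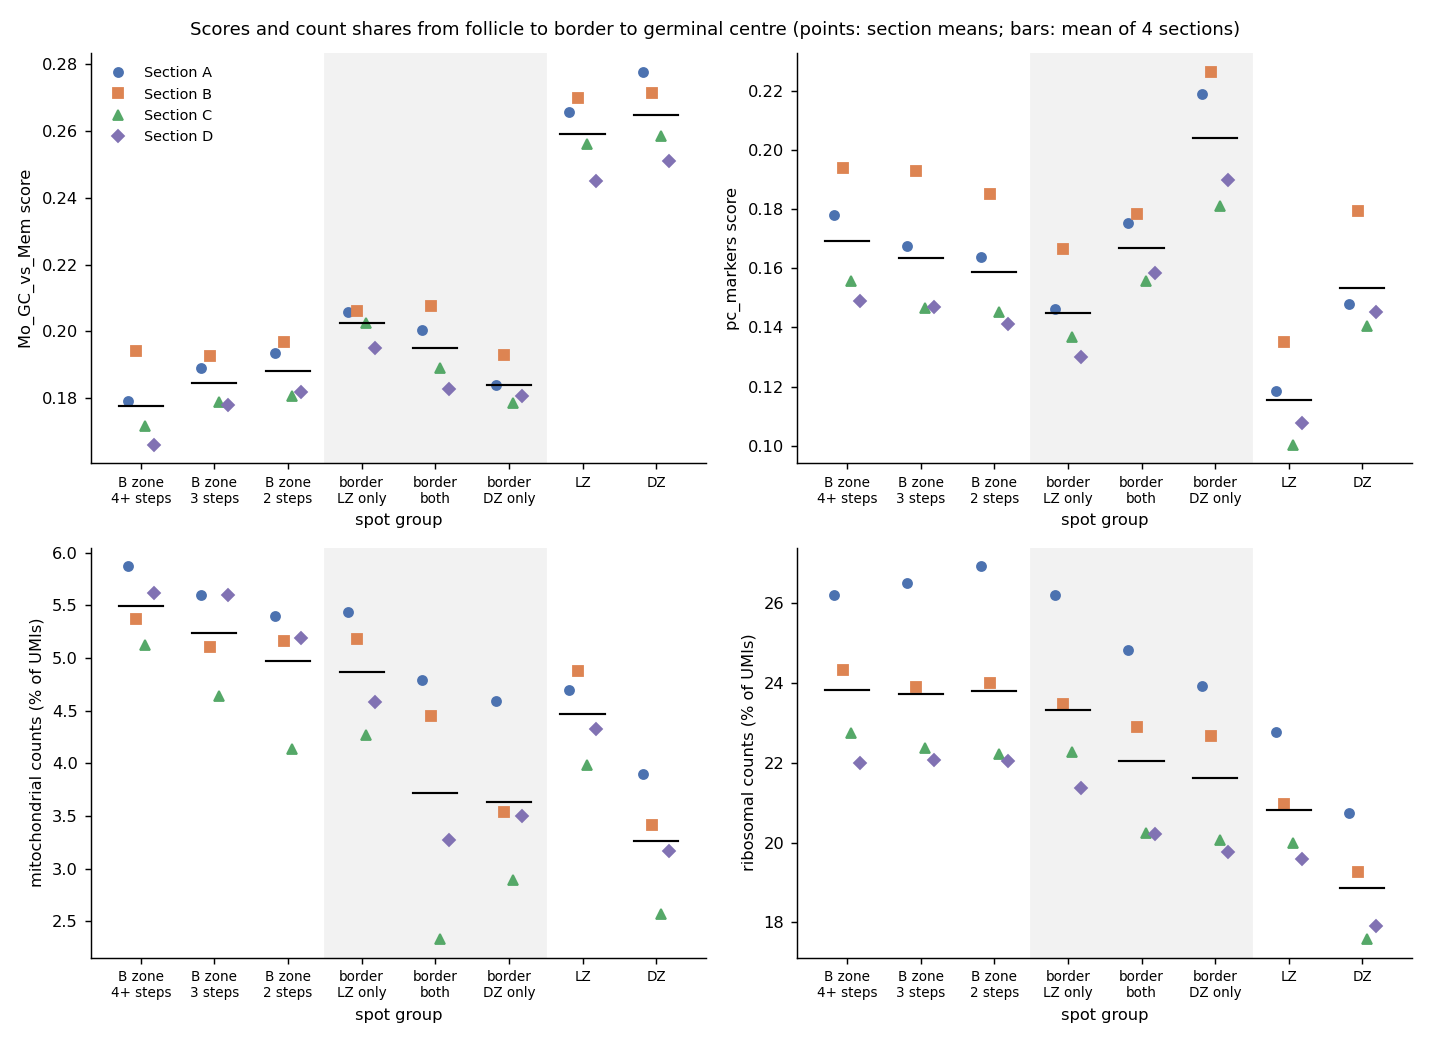
Mean Mo_GC_vs_Mem score, pc_markers score, mitochondrial share and ribosomal share per section (symbols) and over 4 sections (black bars) in B zone by distance from the germinal centre, in the 3 classes of border spots (shaded) and in LZ and DZ. The DZ-only class has the highest pc_markers level of the 8 groups, a mean of 0.204, while LZ-only spots average 0.145, between B zone and LZ.

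The follicle itself graded toward the ring. B zone spots 2 steps from a germinal centre (474 spots) exceeded those 4 or more steps away (502 spots) in Mo_GC_vs_Mem by 0.0104 ± 0.00585 in 4 of 4 sections. They were lower in pc_markers by a difference of -0.0104 ± 0.00298, in mitochondrial share by -0.522 ± 0.331 points and in Mo_CD34_SC by -0.00968 ± 0.00318, each in 4 of 4. Against the nearest B zone spots alone, the ring's Mo_GC_vs_Mem score was higher by 0.00912 ± 0.00365, and LZ-only spots by 0.0142 ± 0.00548, in 4 of 4. DZ-only spots lay below the nearest B zone spots in that score, with a difference of -0.00423 ± 0.00380 in 4 of 4. Their pc_markers score was higher by 0.0453 ± 0.00860. Depth also varied between these groups. In B zone, the UMI gap between near (2 steps) and far (4 or more) spots was 2315, -1275, 125 and 906 in A to D. The Mo_GC_vs_Mem gaps were 0.0142, 0.00278, 0.00898 and 0.0157. Spearman's rho between UMIs and this score over B zone spots ran from 0.458 to 0.835. DZ-only spots held fewer UMIs than the nearest B zone spots, with a difference of -1894 ± 1179 in 4 of 4. The part of depth in these score differences was not tested.

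How much germinal centre surrounds a spot was the third comparison within the ring. Of the border spots, 301 had 1 DZ or LZ neighbour, 247 had 2 and 119 had 3 or more. Spots with 3 or more averaged 0.204, 0.216, 0.199 and 0.204 for Mo_GC_vs_Mem in A to D, against 0.199, 0.201, 0.194 and 0.188 with 1 or 2 neighbours. They were higher in each section, by 0.0105 ± 0.00625 (SD, n = 4; exact sign-flip p = 0.13, adjusted p = 0.417).

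The ribosomal share was lower with 3 or more neighbours by a difference of -0.780 ± 0.379 points and Mo_Inmt_SC by -0.00328 ± 0.000930, both in 4 of 4 sections with the same exact and adjusted p. Among spots that touched another compartment the Mo_Inmt_SC difference was 0.000663. The other 7 measures, pc_markers included (0.00591 ± 0.0124), had no shared direction.

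The averages over neighbour number join the spots of both zones. In LZ-only spots Mo_GC_vs_Mem was higher with 2 or more neighbours than with 1 by near-equal amounts, 0.0107, 0.0116, 0.0108 and 0.0111 in A to D, while pc_markers differed by -0.00544 ± 0.00778. In DZ-only spots pc_markers was higher with 2 or more neighbours in each section, by 0.00873, 0.0406, 0.0201 and 0.0502, and Mo_GC_vs_Mem differed by 0.00502 ± 0.00607, above 0 in 3 of 4. With 3 or more neighbours DZ-only spots averaged 0.210, 0.246, 0.230 and 0.268 for pc_markers, from only 6, 5, 10 and 3 spots.

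The difference between the zones in this step was itself compared, a choice made after the values had been seen. For pc_markers it was 0.0353 ± 0.0114 and for Mo_CD34_SC 0.00951 ± 0.00290, DZ only minus LZ only, above 0 in 4 of 4 sections, with an exact sign-flip p of 0.13 and an adjusted p of 0.625 over 10 measures. For Mo_GC_vs_Mem it was -0.00604 ± 0.00623, below 0 in 3 of 4.

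**Figure D4:**
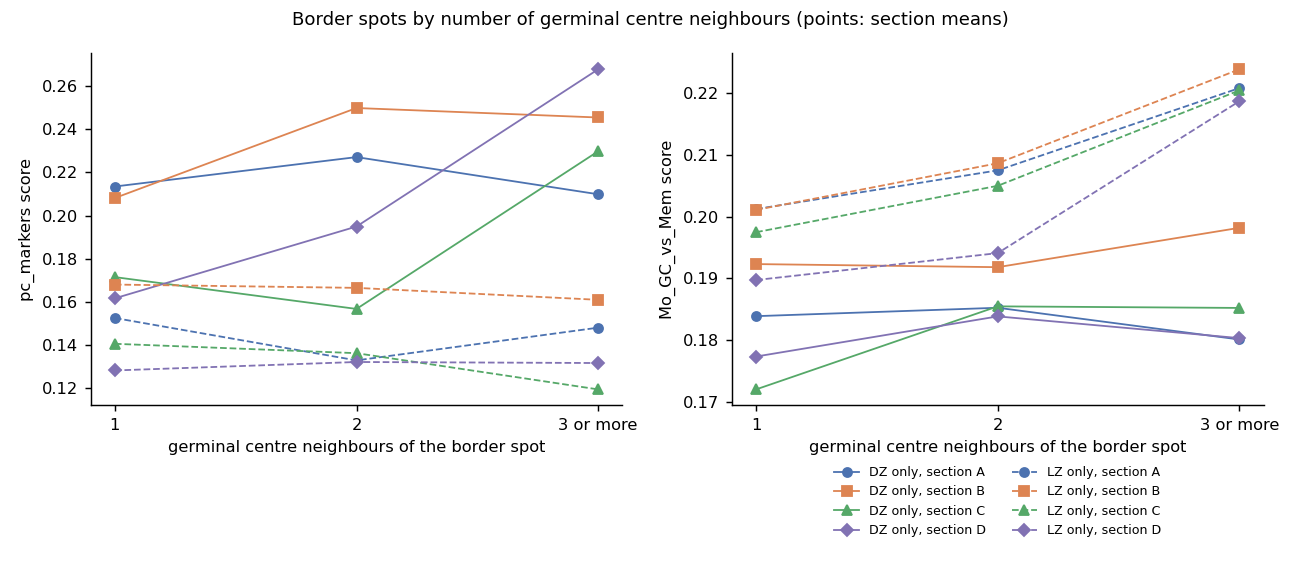
Section means of pc_markers (left) and Mo_GC_vs_Mem (right) in border spots with 1, 2 and 3 or more germinal centre neighbours, for DZ-only spots (solid lines) and LZ-only spots (dashed lines) of each section. The dashed Mo_GC_vs_Mem lines end between 0.219 and 0.224 in all 4 sections, and the solid pc_markers lines lie above the dashed line of the same section at every point.

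The same border spots were also compared within single germinal centres. Adjacent DZ and LZ spots formed 70 connected groups (14, 21, 18 and 17 in A to D), 33 of them with at least 10 spots. These 33 had a median of 14 border spots, from 2 to 26. In the 24 groups with at least 2 LZ-only and 2 DZ-only border spots, pc_markers was lower in LZ-only spots in 23, with a median difference of -0.0624. Mo_GC_vs_Mem was higher in LZ-only spots in 23 of 24 and the mitochondrial share in 22 of 24, with median differences of 0.0265 and 1.47 points. UMIs per spot were also higher in LZ-only spots in 21 of 24, with a median difference of 2783. Some of the 24 groups rest on only 2 DZ-only border spots, and the smallest had 3 DZ or LZ spots. Serial sections can cut the same germinal centre, and 23 border spots touched more than 1 group, so these counts are not independent. Nor are they independent of the comparison by section, which used the same spots.

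Among single border spots Mo_GC_vs_Mem and the mitochondrial and ribosomal shares rose with depth, and some scores moved with each other. Spearman's rho between UMIs and the mitochondrial share was 0.542, 0.569, 0.542 and 0.348 in A to D. For the ribosomal share it was 0.459, 0.235, 0.683 and 0.511. LZ-only spots, with the higher shares of both, also held more UMIs than DZ-only spots in each section. Spearman's rho between UMIs and Mo_GC_vs_Mem was 0.737, 0.599, 0.758 and 0.767 in A to D. Between UMIs and pc_markers it averaged 0.0114 ± 0.134 with 2 sections on each side of 0. That average joins the contact classes, which differed in both measures. Within LZ-only spots the rho of UMIs and pc_markers was 0.174, 0.220, 0.0824 and 0.247. Within B zone spots it was 0.109, 0.148, 0.257 and 0.267. Within DZ-only spots alone it was not taken. Mo_GC_vs_Mem was low where Mo_CD34_SC was high, with a mean rho of -0.490 ± 0.0745, while pc_markers and Mo_CD34_SC were high together with 0.428 ± 0.121. The spots of a section share a library and neighbouring tissue, and both scores of a pair come from the same counts of a spot. These values are descriptions of 152 to 182 border spots per section, of which 94 to 118 touched LZ only, and of 306 to 351 B zone spots.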

How the data were processed

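Visium spatial transcriptomics was run on 4 sections, mapped to samples by the letter A to D in their names. The authors deposited a table with 1 row per spot that gives the counts (UMIs and detected genes), the percent of counts from mitochondrial and ribosomal genes, 6 gene set scores, cluster numbers, a region name and the array position. Reads were processed with Space Ranger 1.3.1 and Seurat 4.2.1 on mm10, per the submitters' processing notes. How spots were scored, filtered and assigned to regions was not stated in the sources used here. Image alignment files were not used.

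Neighbours were the 6 adjacent array positions present in the table, and steps from a germinal centre were counted over these positions. Spot values were averaged per group and section where a section held at least 2 spots of it. Differences were taken within a section and tested over 4 sections with the exact two-sided sign-flip permutation test, adjusted by Benjamini-Hochberg over the 10 measures of each comparison. All score, depth, mitochondrial and ribosomal columns are named, and no genes. The members, groups and comparisons were chosen with earlier results of these data known. The scripts (Python 3.11.15, numpy 2.4.6, pandas 2.3.3, scipy 1.17.1, matplotlib 3.10.9) were tested on simulated data. Alternatives were a minimum of 1000 UMIs, medians, a linear fit on log10 UMIs, B zone by distance, neighbour classes, tissue pieces and leaving out each section. The fit was made per section over all of its spots. The alternatives by contact with another compartment, by 6 neighbours, by DZ contact alone and by expression cluster were added after seeing the data. Precision is limited by the 4 sections.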

Additional observations from a re-analysis of the deposited data

Results flagged for a closer look

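In 10 of the 210 sets of 4 section values checked, a single section stood apart from the other 3, which chance gives for about 1 in 20 sets. No cause was tested. For spots touching both zones, Mo_CD34_SC minus B zone was -0.00197 in section D, with the others between -0.00943 and -0.00819. Mo_Nr4a1_SC of the same spots minus LZ-only spots was 0.000561 in section C against 0.00832 to 0.00956.

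For LZ-only spots, the mitochondrial share minus the nearest B zone was -0.613 points in section D against 0.0230 to 0.139, so the other 3 sections lay slightly above 0. Their mitochondrial share minus LZ was 0.741 points in section A against 0.257 to 0.310. Their Mo_Nr4a1_SC step from 1 to 2 or more neighbours was 0.00169 in section D against -0.00440 to -0.00418.

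For DZ-only spots, Mo_Inmt_SC minus DZ was 0.0421 in section A against 0.0244 to 0.0265. The step from 1 to 2 or more neighbours was -1553 UMIs in section A against 553 to 725, and for Mo_CD34_SC it was -6.74e-05 in section C against 0.00507 to 0.00602. For all border spots minus GC_T Border, the mitochondrial share was 0.142 points in section A against 0.841 to 0.875, and Mo_Inmt_SC was 0.00348 in section B against -0.00528 to -0.00383.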

How the results depend on the processing

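Each difference is taken within a section, so all comparisons are paired by section. Border spots with 6 neighbours alone, in the 2 comparisons within the ring, and equal numbers of germinal centre neighbours moved no difference by more than the SD between sections. The same held for a minimum of 1000 UMIs and for border spots of the follicle's expression cluster alone. These 2 settings took out only 1 and 12 border spots, so they could move little. Leaving out 1 of 4 sections cannot move a mean by more than that SD, so the ranges are given instead. Without 1 section, LZ only minus DZ only ranged from -0.0643 to -0.0548 for pc_markers, from 0.0166 to 0.0202 for Mo_GC_vs_Mem and from 1.10 to 1.37 points for the mitochondrial share. Over all 30 differences, 13 moved by over 1.5 times or changed sign without 1 section, and 0 of these 13 had a shared direction over the 4 sections. Border minus B zone ranged from -126 to 26.5 UMIs (the latter without section B), from -5.97 (without C) to 48.8 genes and from -0.00526 to -0.00195 for pc_markers, and LZ only minus DZ only from -0.00798 to -0.00161 (without A) for Mo_Nr4a1_SC. With 3 or more against 1 or 2 neighbours, section B decided the sign of the depth difference, at -231 UMIs and -18.9 genes without it, and Mo_Nr4a1_SC was -0.000127 without A and -0.000523 without D. The values below moved further, and where no cause follows from the subset itself the cause was not tested.

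For border minus B zone, the nearest B zone spots gave -316 UMIs, Mo_GC_vs_Mem 0.00912, pc_markers 0.00171 and Mo_CD34_SC -0.00553, and B zone spots 4 or more steps away gave 202 UMIs, 0.0195, -0.00866 and -0.0152. Border spots with 1 germinal centre neighbour gave ribosomal share -0.671 points and pc_markers -0.00842. Follicle-side border spots gave 745 UMIs, 149 genes, ribosomal share -0.411, Mo_GC_vs_Mem 0.0209, pc_markers -0.0207 and Mo_CD34_SC -0.0150. Border spots touching another compartment gave -1509 UMIs, -225 genes, mitochondrial share -1.36, ribosomal share -1.99, Mo_GC_vs_Mem 0.00206, pc_markers 0.0270, Mo_CD34_SC -0.00143, Mo_Nr4a1_SC 0.000754 and Mo_Nr4a1Inmt_SC -0.00507. Spots with 6 neighbours gave 566 UMIs, 167 genes, ribosomal share -0.394, pc_markers 0.00454, Mo_CD34_SC -0.00650 and Mo_Nr4a1_SC 0.000506. Medians gave a ribosomal share of -0.634. The upper piece gave ribosomal share -0.604, pc_markers -0.00948 and Mo_CD34_SC -0.0132, and the lower piece -1.42, 0.00138 and -0.00681.

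For LZ only minus DZ only, the fit on log10 UMIs gave ribosomal share 1.04, Mo_GC_vs_Mem 0.000799 and Mo_Inmt_SC -0.00399. Spots touching another compartment gave 850 UMIs, mitochondrial share 0.747, ribosomal share 0.814, Mo_GC_vs_Mem 0.00556, pc_markers -0.0342 and Mo_CD34_SC -0.00385. The pc_markers difference was -0.0474 in follicle-side spots and -0.0466 in the upper piece.

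For 3 or more minus 1 or 2 neighbours, spots touching another compartment turned Mo_Inmt_SC to 0.000663 and moved Mo_CD34_SC to 0.000789. LZ-only spots gave mitochondrial share 0.219, ribosomal share -0.181, Mo_GC_vs_Mem 0.0212, Mo_CD34_SC -0.00795, Mo_Inmt_SC -0.00752 and Mo_Nr4a1Inmt_SC -0.00531. DZ-only spots gave Mo_GC_vs_Mem 0.00252, pc_markers 0.0408, Mo_CD34_SC 0.00671, Mo_Inmt_SC -1.91e-05 and Mo_Nr4a1Inmt_SC 0.000598. The lower piece gave Mo_CD34_SC 0.00103 and Mo_Nr4a1_SC 0.00730, and the upper piece Mo_Nr4a1_SC -0.00382.

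The limits are 4 serial sections of unknown animal number, scores whose genes are not given here, and depth that differs between sections and along the ring. With 4 sections the exact permutation test cannot go below 0.13 (rounded). The few DZ-only spots on the follicle side, 2 in section D, limit that comparison.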

Other observations

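The contrast along the ring was also taken within each of the 2 pieces of lymph node tissue per section. LZ-only minus DZ-only pc_markers was -0.0466 in the upper piece and -0.0702 in the lower piece, below 0 in every section of each, and the mitochondrial share differed by 1.26 and 1.29 points, above 0 in every section of each. Of the measures with a shared direction over all border spots, 4 lost it in the upper piece. There section D stood at -105 UMIs, -204 genes, 0.00452 for Mo_CD34_SC and 0.00224 for Mo_Inmt_SC, and section B at -5.42 genes.

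Along the ring, spots that touched both zones had a lower mitochondrial share than LZ-only spots and a lower pc_markers score than DZ-only spots. They differed from LZ-only spots by -1.15 ± 0.601 points in mitochondrial share, below 0 in 4 of 4 sections. From DZ-only spots they differed by 0.201, 0.914, -0.557 and -0.223 points in A to D. The mean of 0.0836 ± 0.635 thus joins sections above and below the DZ-only level. In pc_markers they differed from DZ-only spots by -0.0372 ± 0.0107 in 4 of 4 sections and from B zone by 0.00275 ± 0.0108. Their Mo_GC_vs_Mem score exceeded B zone by 0.0118 ± 0.00336 in 4 of 4.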
